A study of Mus musculus with 3 samples.

Results

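The 38 genes described here encode the machinery of DNA replication. They were listed by symbol, with no threshold on measured values, and every symbol matched 1 row of the 27998 genes in each count table. In S phase, origins that were licensed in G1 by loading of the MCM helicase are fired once, the helicase is activated by CDC45 and the GINS complex, and polymerases, clamp, ligase and nucleotide-making enzymes copy the strands. Most of these genes are classical targets of E2F transcription factors and are transcribed from late G1 into S phase, so their messenger RNA marks cells that are preparing to copy or are copying DNA. Lymphoid progenitors of the bone marrow are known to divide while they choose a lineage, and the innate lymphoid cell (ILC) precursors studied here are the early steps of 1 such lineage.

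Cells were sorted from the bone marrow of C57BL/6 mice and profiled with 10x Chromium v2 chemistry, which counts the messenger RNA molecules of each cell as unique molecular identifiers (UMIs). The ALP library, from Tcf7EGFP/+ mice, holds the series' common lymphoid progenitors; their gate, Lin- Kit+ 2B4+ a4b7- Flt3high IL-7Ra+, differs from that of the other libraries. ILCpro_WT, also Tcf7EGFP/+, and ILCpro_KO, Tcf7EGFPnull/-, are early ILC progenitors and share the gate Lin- Kit+ 2B4+ a4b7+ Tcf7+; the wild-type label therefore stands for mice with 1 reporter allele of Tcf7, which encodes the transcription factor TCF-1. Each group is 1 library and the labels do not say how many mice went into it, so no difference below has a replicate check, no test was possible, and every interval is an exact 95% interval for counting error only.

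After filtering, 810 ALP cells, 1829 ILCpro_WT cells and 716 ILCpro_KO cells remained, with 4115605, 6094683 and 4384061 UMIs. The median cell held 4544.5 UMIs in ALP, 2897 in ILCpro_WT and 5309 in ILCpro_KO, so that ILCpro_WT was the shallowest library per cell; this difference runs beside every comparison below. ALP and ILCpro_WT shared 4 barcode sequences, ILCpro_WT and ILCpro_KO shared 1, and ALP and ILCpro_KO shared 0. Tcf7 stood at 1.46 CPM (UMIs scaled to a library total of 1000000) in ALP, 362 in ILCpro_WT and 57.3 in ILCpro_KO. Since no label states what the null allele lacks, these tags from the 3′ end are no check of the deletion. Of the genes that mark the ILC path, Zbtb16 stood at 0.243, 271 and 50.6 CPM and Id2 at 11.4, 711 and 671 CPM, while Flt3, part of the ALP gate, stood at 288, 17.6 and 67.7 CPM. Itgb7, of the a4b7 gate, had 24.3, 106 and 162 CPM.

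Markers of other lineages also differed between the libraries. The summed neutrophil and monocyte list (15 genes) stood at 1010 CPM in ALP, 568 in ILCpro_WT and 4858 in ILCpro_KO, and the mast cell and basophil list (8 genes) at 24.8, 202 and 818 CPM. All 15 neutrophil and monocyte genes had UMIs in ALP and ILCpro_KO and 12 in ILCpro_WT, where Ngp, Camp and Ltf were at 0. Cells with at least 3 UMIs of any of 8 such lists in 1000 made up 20.4% of ALP, 9.86% of ILCpro_WT and 34.6% of ILCpro_KO. The sum, the shares of replication-high cells and the ratios by stage are also given without these cells.

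The 38 replication genes were lowest in ILCpro_WT. Together they took 3951 CPM in ALP (95% interval 3890 to 4012), 2459 CPM in ILCpro_WT (2420 to 2499) and 3729 CPM in ILCpro_KO (3672 to 3787). ILCpro_WT thus held 0.622 times the ALP sum (0.609 to 0.636), ILCpro_KO 1.52 times the ILCpro_WT sum (1.48 to 1.55) and ILCpro_KO 0.944 times the ALP sum (0.924 to 0.965). These are sums over a library: fewer cells in S phase and less of these RNAs per cell cannot be told apart in them. Without the marker cells of other lineages the sums were 3934, 2383 and 3633 CPM, in the same order. In cells of 3000 to 6000 UMIs, a band added after seeing the data, ILCpro_KO held 0.963 times the ILCpro_WT sum and ILCpro_WT 0.782 times the ALP sum; the dependence on depth is set out further on. The 3 comparisons share libraries and are not independent of each other.

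Gene by gene, ILCpro_WT was the lowest of the 3 libraries for 37 of 38 members; the exception was Rpa3, lowest in ILCpro_KO. ALP was the highest library for 27 members and ILCpro_KO for 11. Ratios of single genes are given on the log2 scale with 10 CPM added to both sides, and a gene entered a count when it reached 20 CPM in either library. From ALP to ILCpro_WT, 26 of 38 members were at least 1.5-fold lower, against 12.3% of the 5953 genes counted, and 38 of 38 were lower by any amount, against 61.3%. The median log2 ratio of the members was −0.68, that of all genes −0.09. In cells of 3000 to 6000 UMIs 7 members were 1.5-fold lower, and 17 with a stricter cell filter of at least 1000 genes. The shares of all genes in these cells are not given.

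From ILCpro_WT to ILCpro_KO, 13 of the 37 members counted were at least 1.5-fold higher, against 8.13% of 5877 genes, and 36 of 37 were higher by any amount, against 65.8%. The median log2 ratio was 0.49 for the members and 0.12 for all genes. In cells of 3000 to 6000 UMIs 0 members were 1.5-fold higher, and in cells with 0 mitosis UMIs 26 were. The median log2 ratio was −0.02 for the members and 0.12 for all genes in the band. In cells with 0 mitosis UMIs these medians were 0.81 and 0.13. The shares of all genes in these cells are not given. When libraries were scaled by median-of-ratios size factors instead of their totals, the median over all genes moved to 0.00 and that of the members to 0.39. From ALP to ILCpro_KO, 0 of 38 members were 1.5-fold lower (5.6% of 5999 genes were) and 0 were 1.5-fold higher (5.92%). By any amount 11 were higher (53% of all genes) and 27 lower (47%), with a median log2 ratio of −0.10. In cells of 3000 to 6000 UMIs 35 members were lower in ILCpro_KO than in ALP and 3 higher, with a median of −0.41. The share of all genes in that band is not given.

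**Figure D1:**
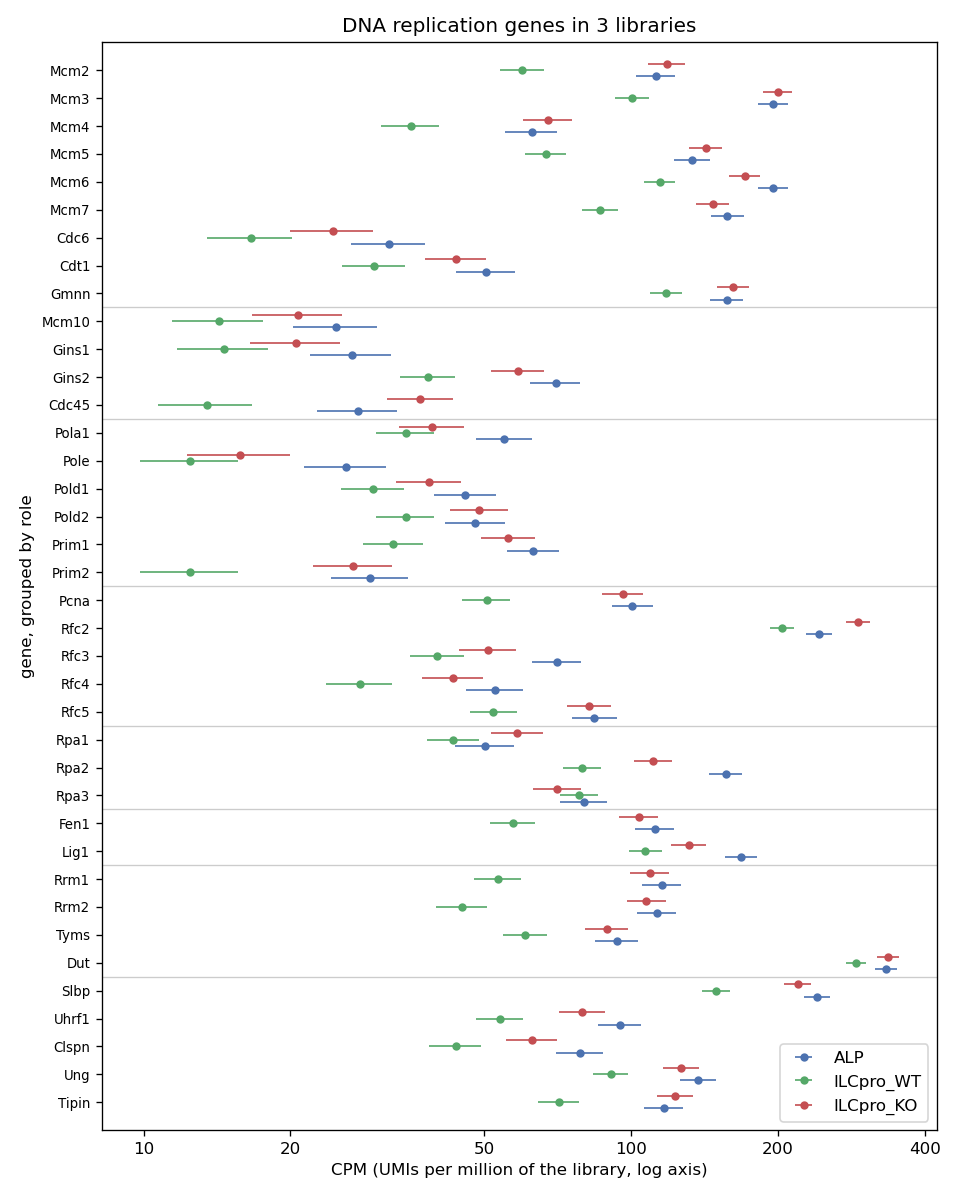
Level of each of the 38 genes in the 3 libraries, in CPM on a log axis, with genes grouped by role and separated by grey lines; bars are exact 95% Poisson intervals (counting error only). The ILCpro_WT point is the leftmost of the 3 for 37 of 38 genes, and only for Rpa3 is another library, ILCpro_KO, lower.

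The origin licensing genes had the highest ratio of ILCpro_KO to ILCpro_WT of the 8 roles, level within counting error with helicase activation. The 9 licensing genes summed to 1096 CPM in ALP, 627 in ILCpro_WT and 1075 in ILCpro_KO. ILCpro_KO thus held 1.71 times the ILCpro_WT level (1.64 to 1.79) and 0.981 times the ALP level (0.942 to 1.02). The MCM ring is the replicative helicase, and all of the subunits from Mcm2 to Mcm7 were lower in ILCpro_WT than in both other libraries. Mcm5 stood at 133 CPM in ALP, 66.8 in ILCpro_WT and 142 in ILCpro_KO, a ratio of ILCpro_KO to ILCpro_WT of 2.13 (1.88 to 2.42). Mcm2 had 112, 59.7 and 118 CPM, and Mcm3 196, 101 and 200 CPM. For Mcm2, Mcm3, Mcm4 and Mcm5 ILCpro_KO lay above ALP by less than the counting intervals, whereas Mcm6 had 196, 114 and 171 CPM and lay below ALP. Cdc6 and Cdt1 load the ring onto origins. Cdc6 had 31.8, 16.6 and 24.4 CPM, and Cdt1 had 50.3, 29.7 and 43.8 CPM. Geminin (Gmnn) restrains Cdt1 and stays high until mitosis; it differed less, with 157, 118 and 162 CPM.

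The 4 genes of helicase activation summed to 149 CPM in ALP, 80.6 in ILCpro_WT and 137 in ILCpro_KO. Their ratio of ILCpro_KO to ILCpro_WT was 1.70 (1.51 to 1.92). Cdc45, which joins the MCM ring and GINS into the active helicase, had 27.5, 13.5 and 36.95 CPM. Its ratio of ILCpro_KO to ILCpro_WT, 2.75 (2.09 to 3.63), was the highest plain ratio among the members, and it was 1 of 2 members at least 2-fold higher on the log2 scale with 10 CPM added, where 2.18% of all genes were. It also had the highest log2 ratio of ILCpro_KO to ALP, 0.33. Gins2 had 70.0, 38.2 and 58.6 CPM, while Gins1 had 26.7, 14.6 and 20.5 CPM and Mcm10 24.8, 14.3 and 20.8 CPM.

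Polymerase and primase genes were as low in ILCpro_WT, relative to ALP, as the licensing genes, but ILCpro_KO lay further below ALP. The 6 genes summed to 267 CPM in ALP, 156 in ILCpro_WT and 225 in ILCpro_KO, or 0.844 times ALP (0.773 to 0.920). Pole, the catalytic subunit of the leading-strand polymerase, had 26.0, 12.5 and 15.7 CPM. Its log2 ratio of ILCpro_KO to ALP, −0.48, was the lowest of all members. Pola1, the catalytic subunit of the polymerase that extends primers, had 54.9, 34.5 and 39.0 CPM, and its ratio of ILCpro_KO to ILCpro_WT, 1.13, had an interval that included 1 (0.920 to 1.39). The primase subunits stood apart from it: Prim1 had 62.9, 32.5 and 55.9 CPM and Prim2 29.2, 12.5 and 26.9 CPM, ratios of 1.72 (1.42 to 2.09) and 2.16 (1.60 to 2.92). Pold1 and Pold2, of the lagging-strand polymerase, had ratios of 1.31 and 1.42.

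Within the clamp and clamp loader group the 5 genes diverged. Pcna, the ring that tethers polymerases to DNA, had 101, 50.5 and 96.0 CPM, a ratio of 1.90 (1.64 to 2.21) between ILCpro_KO and ILCpro_WT. Rfc2, a loader subunit, had 243, 204 and 292 CPM and was 1.20 times higher in ILCpro_KO than in ALP (1.11 to 1.31). Rfc3, another loader subunit, went the other way against ALP, with 70.5, 40.0 and 50.9 CPM. Rfc2 lies opposite Lat2, and Rfc4 opposite Eif4a2, in the annotation; whether counting used strand is not given in the sources used here, so reads of such neighbours could be mixed, as for Mcm7 (Ap4m1 and Cops6), Gins2 (Gse1), Rfc5 (Wsb2) and Fen1 (Tmem258). The pseudogene Pcna-ps2, which can share reads with Pcna, had 10.4, 3.77 and 7.76 CPM.

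Replication protein A coats single-stranded DNA with 3 subunits, and their genes behaved unalike. Rpa2 had 156, 79.2 and 111 CPM, a ratio of ILCpro_WT to ALP of 0.507 (0.450 to 0.572). Rpa3 had 79.9, 78.3 and 70.5 CPM, and both ratios that involve ILCpro_WT had intervals that included 1: 0.901 for ILCpro_KO (0.778 to 1.04) and 0.979 for ILCpro_WT over ALP (0.849 to 1.13). Rpa1 had 50.1, 43.2 and 58.4 CPM. Of the lagging-strand genes, the flap endonuclease Fen1 had 112, 57.1 and 104 CPM and the ligase Lig1 168, 107 and 131 CPM. Their ratios of ILCpro_KO to ILCpro_WT were 1.81 (1.57 to 2.09) and 1.23 (1.09 to 1.37).

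Nucleotide supply contained both the largest and some of the smallest differences. Rrm2, the small subunit of ribonucleotide reductase, which limits the making of deoxynucleotides in S phase, had 113 CPM in ALP, 45.0 in ILCpro_WT and 107 in ILCpro_KO. Its log2 ratio was −1.16 from ALP to ILCpro_WT, the only member at least 2-fold lower there (4.38% of all genes were), and 1.10 from ILCpro_WT to ILCpro_KO, the highest of the members. The large subunit gene Rrm1 had 115, 53.3 and 109 CPM. Thymidylate synthase (Tyms) had 93.5, 60.5 and 89.2 CPM. Dut, which removes dUTP, differed little, with 333, 289 and 336 CPM; its ratio of ILCpro_KO to ILCpro_WT was 1.16 (1.09 to 1.25).

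The 5 genes of fork checkpoint, uracil repair and chromatin copying summed to 668, 408 and 611 CPM. Tipin, the partner of Timeless at the fork, had 117, 71.0 and 123 CPM, and the checkpoint mediator Clspn 78.5, 43.6 and 62.5 CPM. Ung, which cuts uracil out of DNA, had 137, 90.7 and 127 CPM. Uhrf1, which helps copy DNA methylation, had 94.8, 53.8 and 79.4 CPM, and Slbp, which binds histone messenger RNA, 241, 149 and 219 CPM. All of them were at least 1.34-fold higher in ALP than in ILCpro_WT by the lower end of their intervals.

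Promoter sequences of 30 members were found in the RefSeq table of GRCm38.p6, as the 250 bases before to 50 after each start; Mcm4, Gins1, Gins2, Gmnn, Rfc2, Pole, Prim2 and Tipin had no entry. The E2F site was searched on both strands in 3 letter forms, TTTCGCGC, TTTGGCGC and TTTCCCGC, which can overlap each other. Any of the 3 stood in 6 of 30 members, 20% (Mcm5, Mcm6, Mcm7, Cdc6, Rfc3 and Pola1), and in 1.59% of 27025 promoters in the table. The CCAAT box, searched in the same way, stood in 20 of 30 members and in 34.5% of the promoters. A match describes letters, not binding, and the lack of one says nothing of the factor. The promoters of 4 members are shown, cut where the transcript begins: Mcm5 and Mcm6, whose windows hold overlapping forms on both strands, then the members with the largest and the smallest difference between libraries, Rrm2 and Rpa3, which hold none of the 3 forms. Capitals mark the E2F forms, each sequence is on its gene's strand, and coordinates are of GRCm38.p6.
Mcm5 promoter, chr8:75109259-75109508, plus strand: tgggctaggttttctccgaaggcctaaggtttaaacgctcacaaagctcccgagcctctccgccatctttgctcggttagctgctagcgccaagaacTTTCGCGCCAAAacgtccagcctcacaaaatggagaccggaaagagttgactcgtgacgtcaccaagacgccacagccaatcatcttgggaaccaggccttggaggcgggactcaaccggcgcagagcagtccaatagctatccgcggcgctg
Mcm6 promoter, chr1:128359706-128359955, minus strand: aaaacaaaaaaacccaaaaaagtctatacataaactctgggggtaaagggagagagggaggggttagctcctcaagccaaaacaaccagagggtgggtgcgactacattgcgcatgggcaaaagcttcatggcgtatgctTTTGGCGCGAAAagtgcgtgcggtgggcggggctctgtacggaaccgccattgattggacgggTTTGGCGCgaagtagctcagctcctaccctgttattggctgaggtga
Rrm2 promoter, chr12:24708004-24708240, plus strand: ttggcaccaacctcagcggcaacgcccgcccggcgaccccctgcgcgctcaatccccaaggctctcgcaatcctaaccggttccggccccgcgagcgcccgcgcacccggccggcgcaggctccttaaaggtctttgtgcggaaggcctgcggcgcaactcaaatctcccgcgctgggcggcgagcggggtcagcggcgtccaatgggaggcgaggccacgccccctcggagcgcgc
Rpa3 promoter, chr6:8259174-8259391, minus strand: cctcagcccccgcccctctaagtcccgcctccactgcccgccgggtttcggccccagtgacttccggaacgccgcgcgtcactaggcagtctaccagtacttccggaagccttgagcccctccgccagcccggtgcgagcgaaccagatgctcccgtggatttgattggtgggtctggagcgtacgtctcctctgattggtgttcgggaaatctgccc

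Counted per cell at equal depth, the low ILCpro_WT sum went with a smaller share of cells rich in replication RNA. Each cell was thinned at random to 1000 UMIs, which left out 4 shallow ILCpro_WT cells, and a cell with at least 5 UMIs of the 38 genes was called replication-high. This is a range of a continuous measure, not a cell type: 66, 80 and 61 cells lay exactly at 5 UMIs and 86, 108 and 60 at 4. In ALP 273 of 810 cells were replication-high, 33.7% (Clopper-Pearson 30.5 to 37.1). In ILCpro_WT 272 of 1825 were, 14.9% (13.3 to 16.6), and in ILCpro_KO 199 of 716, 27.8% (24.5 to 31.2). Without thinning the shares were 79.1%, 42.2% and 78.6%. At the other end, 11.9% of ALP cells, 28.5% of ILCpro_WT cells and 17.5% of ILCpro_KO cells had 0 replication UMIs in 1000.

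Within replication-high cells the intervals of the 3 libraries overlapped. Such a cell held on average 7.14 replication UMIs per 1000 in ALP (6.82 to 7.46), 6.94 in ILCpro_WT (6.63 to 7.26) and 7.24 in ILCpro_KO (6.87 to 7.62), a similarity that the common threshold favours. All other cells held 1.89, 1.25 and 1.65. Gene by gene, cells were called high (at least 5 UMIs) or low (at most 1) from the other 37 genes. In high cells 19 members were higher and 19 lower in ILCpro_KO than in ILCpro_WT, with a median log2 ratio of 0.02. In low cells 28 members were higher and 10 lower, with a median of 0.35. Over all cells 65.8% of genes were higher in ILCpro_KO, and the share of all genes within high or low cells is not given.

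No group of cells known to lack these RNAs was at hand for a background level. Among ALP cells with B cell markers 0 of 12 were replication-high, which allows a share of up to 25% by the limit of 3 counts and 26.5% by the Clopper-Pearson bound (median depth 1290 UMIs, against 4544.5 in the library). Among ILCpro_KO cells with T cell markers 3 of 18 were, 16.7% (3.58 to 41.4), at a median depth of 3726 UMIs. Cells with neutrophil and monocyte markers stood higher: 15 of 30 were replication-high in ALP, 50% (31.3 to 68.7), 22 of 67 in ILCpro_WT, 32.8% (21.8 to 45.4), and 48 of 138 in ILCpro_KO, 34.8% (26.9 to 43.4), at median depths of 5636, 3779 and 6899.5 UMIs. Without all marker cells the shares of replication-high cells were 35.3%, 13.7% and 26.9%.

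**Figure D2:**
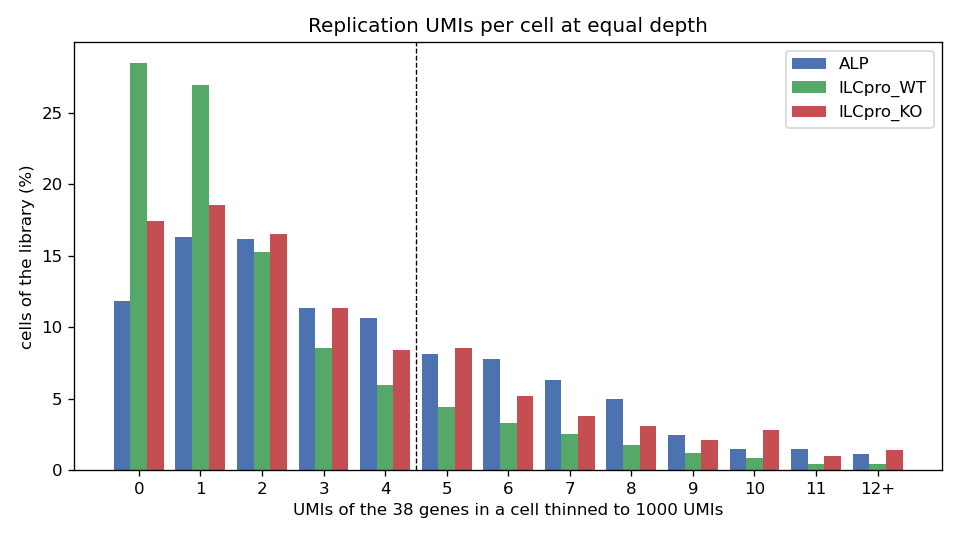
Share of each library's cells by the number of UMIs of the 38 replication genes after thinning to 1000 UMIs per cell (the last bar group is 12 or more); the dashed line marks the threshold for replication-high cells. ILCpro_WT has the tallest bar at 0, with 28.5% of its cells, and the shortest bars to the right of the line.

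A cell's own depth ran with the replication genes even after thinning. In ILCpro_WT, cells that had held 1000 to 2000 UMIs had 0.963 replication UMIs per 1000, those of 3000 to 4500 had 2.72 and those of 4500 to 7000 had 3.47. The same bands held 2.00, 3.34 and 4.36 in ALP, above ILCpro_WT in each. ILCpro_KO, in contrast, held 1.06, 2.14 and 3.52, close to ILCpro_WT in the first band (ratio 1.10, 0.636 to 1.79), below it in the second (0.785, 0.699 to 0.88) and close to it in the third (1.01, 0.920 to 1.11). Only among cells of 7000 UMIs and more, 219 in ILCpro_KO and 78 in ILCpro_WT, was ILCpro_KO higher beyond its interval, 4.46 against 3.12 (ratio 1.43, 1.24 to 1.66).

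In the 333 ILCpro_KO and 705 ILCpro_WT cells of 3000 to 6000 UMIs, a band chosen after seeing the data, the sum of the 38 genes in ILCpro_KO was 0.963 times that in ILCpro_WT, with 16 members higher, 22 lower and 0 at least 1.5-fold higher. The share of replication-high cells was 19.8% in ILCpro_KO and 24.3% in ILCpro_WT there. ILCpro_WT against ALP kept its direction in that band, at 0.782, with 34 of 38 members lower. The shares of all genes in the band are not given for either comparison. When cells were instead ranked by depth within their own library and cut in 3 equal parts, ILCpro_KO was higher than ILCpro_WT in each. The ratio was 1.66 (1.47 to 1.88) in the shallowest, 1.64 (1.5 to 1.79) in the middle and 1.40 (1.30 to 1.51) in the deepest. These parts do not match depth, since ILCpro_KO cells were deeper in each. The shallowest held 1666 to 4203 UMIs in ILCpro_KO and 1005 to 2384 in ILCpro_WT. The middle held 4224 to 6650 against 2385 to 3500, and the deepest 6654 to 21010 against 3500 to 14984. With 1 library per genotype, depth and genotype cannot be told apart.

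ILC stage genes were used next to place cells along the path within a library. A thinned cell was sorted into 4 classes by whether it held a UMI of 8 early genes and of 10 late genes. The early genes were Nfil3, Flt3, Cd34, Mycn, Cpa3, Mef2c, Dntt and Lmo2, and the late genes included Zbtb16, Rora, Gata3 and Il18r1. In ILCpro_WT the 395 cells with early genes alone had 2.73 replication UMIs per 1000 (2.57 to 2.90) and the 784 cells with late genes alone 1.61 (1.53 to 1.70), a ratio of 0.591 (0.545 to 0.642), or 0.620 without marker cells. Their replication-high shares were 22.3% and 9.44%. The 347 cells with both had 1.83 and the 299 with neither 2.87. Split on single early genes, cells with Nfil3, Cd34, Mef2c, Dntt or Lmo2 had more than cells without, beyond their intervals. Cells with Cd34, Mef2c, Dntt or Lmo2 were also deeper than cells without, while those with Nfil3 were not. Flt3 and Cpa3 were within their intervals, and cells with Mycn had less (1.85 against 2.13, beyond its interval). The late cells were also shallower, at a median of 2522 UMIs against 3344, and within the band of 3000 to 6000 UMIs the ratio was 0.698.

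Replication RNA was lower at every step of late-gene content in ILCpro_WT. Cells with 0 late UMIs had 2.79 replication UMIs per 1000, those with 1 had 2.35, with 2 1.84, with 3 or 4 1.47, and with 5 or more 1.01; the median depth went from 3371 to 1990 UMIs over these steps. Among single genes, the 555 ILCpro_WT cells with Rora, a transcription factor of ILC2 development, had 1.19 against 2.5 in the rest. Cells with Zbtb16 (PLZF, a mark of ILC precursors) had 1.43 against 2.30, and those with Tcf7 1.46 against 2.37. Median depths were 2429 against 3143 UMIs for Rora, 2531 against 3014.5 for Zbtb16 and 2645.5 against 3048 for Tcf7. Of the 10 late genes, Cxcr6 alone went with more replication RNA in ILCpro_WT, at 2.38 in 21 cells against 2.10. The ILCpro_KO library had no such regular order: cells with 0, 1, 2 and 3 or 4 late UMIs had 3.39, 3.01, 1.42 and 2.70, the last 2 values from 31 and 20 cells. Its 25 cells with Rora (3.40 against 3.20) and 24 with Pdcd1 (3.38 against 3.20) stood slightly higher, within their intervals. Those with Zbtb16 (2.00 against 3.26), Gata3 (2.49 against 3.26), Il18r1 (2.54 against 3.27), Ltb (1.91 against 3.27) and Tcf7 (2.29 against 3.26) were lower, beyond their intervals. Each of these groups was also shallower than the rest, from 3228 against 5422 UMIs for Ltb to 5054 against 5348 for Gata3. Cells with Rora and Pdcd1 were shallower as well, at 4052 against 5348 and 4579.5 against 5344 UMIs. Of the early genes, Flt3 went with more in ILCpro_KO (4.15 against 3.14), and Cpa3 (2.33 against 3.29) and Dntt (2.44 against 3.26) with less, beyond their intervals. Nfil3, Cd34, Mycn, Mef2c and Lmo2 were within theirs. Median depths were 6092.5 against 5232 UMIs for Flt3, 4367 against 5403 for Cpa3 and 5139 against 5311.5 for Dntt. The part of depth in these splits was not tested.

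Nearly every member took part in the difference between late-only and early-only ILCpro_WT cells. In late-only against early-only ILCpro_WT cells 37 of 38 members were lower by their plain ratio. Of the 36 that reached 20 CPM, 35 were lower by any amount, where 2929 of 5780 genes were. At least 1.5-fold lower were 22 of the 36, where 7.01% of all genes were. Rrm1 had 82.8 CPM in early-only and 31.9 in late-only cells, 2.60-fold (1.93 to 3.52). Ung had 127 and 59.9 CPM, and Mcm4 52.0 and 23.3 CPM. Rrm2, the member with the largest difference between libraries, differed less here, with 52.7 and 37.1 CPM. Rpa3 was level, with 77.3 and 77.6 CPM.

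In ILCpro_KO far fewer cells reached the late class, 78 against 355 with early genes alone. Their median depths were 4499 and 5576 UMIs. The late-only cells had 2.51 replication UMIs per 1000 (2.173 to 2.89) and the early-only cells 3.38 (3.19 to 3.57), a ratio of 0.744 (0.636 to 0.866) that was 0.791 without marker cells and 0.605 when the thinning was drawn with another random seed. Of 36 members counted, 6 were at least 1.5-fold lower in late-only cells, against 8.31% of all genes. Compared within a class, ILCpro_KO stood above ILCpro_WT by 1.24 (1.14 to 1.34) in early-only cells, 1.5 (1.30 to 1.73) with both, 1.19 (1.07 to 1.32) with neither and 1.56 (1.33 to 1.81) in late-only cells; within 3000 to 6000 UMIs the same ratios were 0.805, 0.955, 0.833 and 0.946. Without marker cells they were 1.26, 1.59, 1.04 and 1.61. By gene, 7 of 37 members were at least 1.5-fold higher in ILCpro_KO among early-only cells (6.57% of all genes) and 18 of 34 among late-only cells (14.4%). Weighting the ILCpro_KO class means by the ILCpro_WT class shares gave 1.38 times the ILCpro_WT mean, against 1.52 over all thinned cells. In ALP, 570 of 810 cells were early-only and had 3.67 (3.52 to 3.83).

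**Figure D3:**
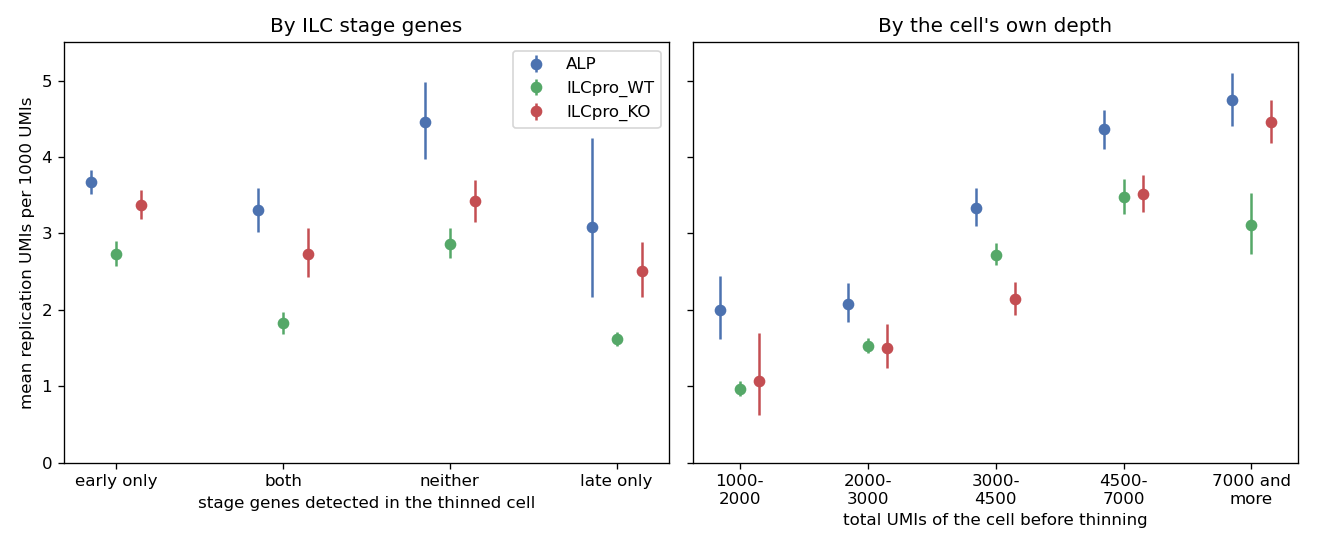
Mean UMIs of the 38 genes per 1000 UMIs in thinned cells, by the stage genes a cell held (left) and by its total UMIs before thinning (right); bars are exact 95% Poisson intervals for counting error. On the left ILCpro_WT is lowest in each class and late-only cells (1.61) lie below early-only cells (2.73); on the right the mean is higher in deeper cells, and ILCpro_KO and ILCpro_WT differ in direction between bands, 2.14 against 2.72 at 3000 to 4500 UMIs and 4.46 against 3.12 at 7000 and more.

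The members were found in the same cells. For each gene in turn, cells were called high or low (at most 1 UMI) from the other 37, so that the gene itself played no part in the call. High cells held more of the left-out gene in all 3 libraries for 37 of 38 members, the median of the log2 ratios being 1.81. At least 1.5-fold higher were 38 of 38 members in ALP, 37 in ILCpro_WT and 36 in ILCpro_KO, where 19.1%, 19.2% and 20.3% of all genes were. High cells were deeper than low cells (in ILCpro_WT a median of 4114 UMIs for 5 to 9 replication UMIs and 2514 for 0 or 1), and the part of depth in these ratios was not tested.

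Ung had the steepest contrast, a median log2 ratio of 2.85. It stood at 232 CPM in high and 42.7 in low ALP cells, 231 and 23.4 in ILCpro_WT, and 323 and 19.2 in ILCpro_KO. Clspn (2.78) and Tyms (2.66) followed. Rpa3 was the flattest, at 0.64, and the member that differed in sign: 118 and 72.03 CPM in ALP, 154 and 57.8 in ILCpro_WT, but 25.4 and 49.6 in ILCpro_KO, the last from 5 and 13 UMIs. Next came Prim2 (0.90), Rpa1 (0.94) and Rfc4 (1.005).

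Mitosis genes separated the members further. In cells with at least 5 UMIs of a mitosis list (38 genes such as Mki67, Top2a and Cdk1) against cells with 0, 15 members were higher in all 3 libraries and 2 lower in all 3. These counts are by any amount, and the share of all genes that went 1 way in all 3 is not given. Rrm2 was highest, with a median log2 ratio of 2.07: 172 against 33.2 CPM in ALP, 158 against 4.22 in ILCpro_WT and 145 against 32.5 in ILCpro_KO. Clspn, Rrm1, Gmnn, Mcm10 and Tyms had medians from 1.47 to 1.61. In ILCpro_KO Mcm10 had 0 CPM in mitosis-high cells against 10.8, too few UMIs to give a direction (interval of the ratio 0 to 5.08). The 2 lower members were Ung, at 45.5 against 190 CPM in ALP, 32.6 against 64.1 in ILCpro_WT and 18.2 against 146 in ILCpro_KO, and Mcm2, at 55.6 against 109, 38.04 against 43.0 and 27.3 against 117 CPM. The interval of the ratio included 1 for Ung in ILCpro_WT (0.181 to 1.16). It did so too for Mcm2 in ALP (0.235 to 1.03) and in ILCpro_WT (0.339 to 1.96). The mitosis-high values of ILCpro_KO came from 110 cells. At least 1.5-fold higher were 17 members among ALP cells, 28 among ILCpro_WT cells and 11 among ILCpro_KO cells (18.8%, 20.9% and 20.9% of all genes); at least 1.5-fold lower were 3, 2 and 6 (17.6%, 15.9% and 22% of all genes). Mitosis-high cells were deeper, with medians of 6889, 4816 and 8487 UMIs against 3601, 2595 and 4595.

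**Figure D4:**
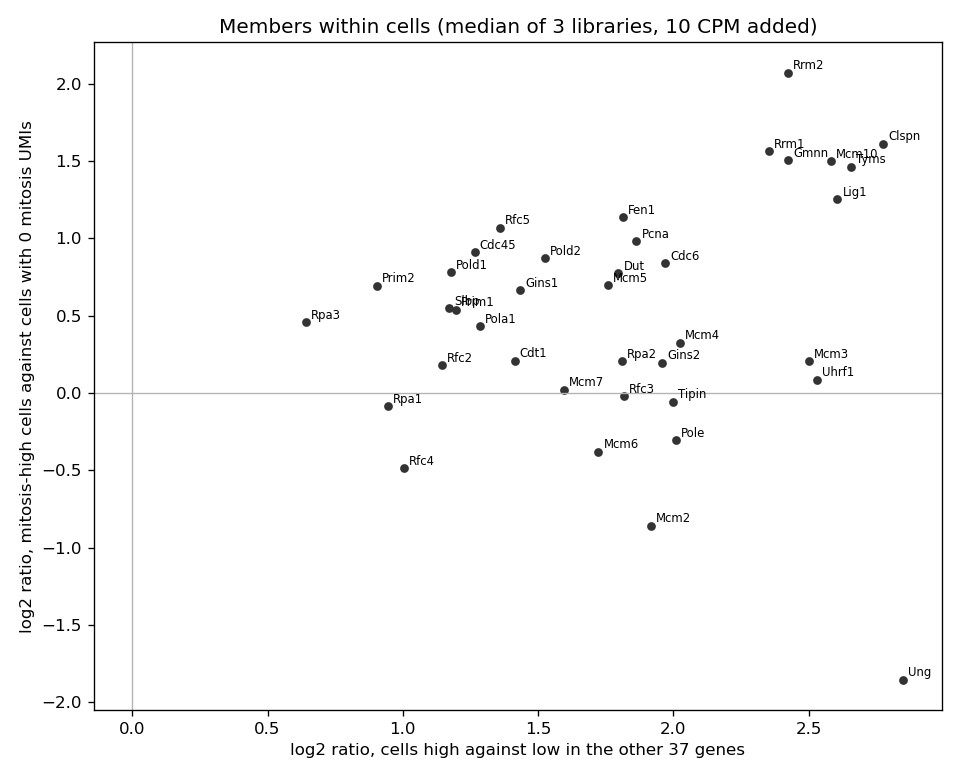
Each point is 1 of the 38 genes, placed by its log2 ratio between cells high and low in the other 37 genes (x) and between mitosis-high cells and cells with 0 mitosis UMIs (y), both as the median of 3 libraries with 10 CPM added. All points lie right of 0 on the x axis, from Rpa3 at 0.64 to Ung at 2.85, while on the y axis they spread from Ung at −1.85 to Rrm2 at 2.07.

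Mitosis genes themselves had the same order of libraries as the replication genes, with ILCpro_KO further below ALP. The 38 mitosis genes summed to 4063 CPM in ALP, 1742 in ILCpro_WT and 2816 in ILCpro_KO, and mitosis-high cells made up 24.4%, 10.1% and 15.4%. In cells of 3000 to 6000 UMIs the order of these shares was another, with 14.5% in ALP, 15.7% in ILCpro_WT and 7.21% in ILCpro_KO. Over all cells ILCpro_KO stood at 0.693 times ALP for mitosis genes (0.677 to 0.709) and at 0.944 times for replication genes. Of the replication-high cells, 25.3% were also mitosis-high in ALP, 19.9% in ILCpro_WT and 12.1% in ILCpro_KO, against 24.0%, 8.37% and 16.6% of the remaining cells.

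Further genes of the replication pathway, on a list of 64 that excludes the 38, differed in the same directions and by less. From ALP to ILCpro_WT 46 of 48 counted were lower, 10 of them at least 1.5-fold, with a median log2 ratio of −0.43; of all genes 61.3% were lower and 12.3% at least 1.5-fold lower. From ILCpro_WT to ILCpro_KO 42 of 47 were higher, with a median of 0.34, where 65.8% of all genes were higher. Of the 47, 5 were at least 1.5-fold higher, a share near the 8.13% of all genes. Those 5 included Ccna2 (cyclin A2), Tk1 (thymidine kinase), Timeless and Orc4 (origin recognition). Ccna2 had 81.9, 22.3 and 53.4 CPM and Tk1 73.4, 39.7 and 76.4 CPM. Orc4 did not follow the members, with 17.98, 15.4 and 31.7 CPM. Pole2, a partner of Pole, had 27.5, 10.3 and 20.3 CPM, and Dbf4, which activates the origin-firing kinase, 48.1, 26.3 and 40.8 CPM. Of the 5 listed genes with the largest absolute log2 ratio between ILCpro_KO and ALP, Samhd1 and Orc4 were higher in ILCpro_KO and Ccna2, Dctd and Rfc1 lower. Samhd1, which breaks down deoxynucleotides, had 28.4, 37.1 and 57.5 CPM, Dctd 39.6, 33.5 and 26.0 CPM, and the large clamp loader subunit Rfc1 209, 137 and 153 CPM.

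Regulators of entry into S phase (28 genes) did not differ in 1 direction. From ALP to ILCpro_WT 13 of 21 counted were lower and 8 higher, and from ILCpro_WT to ILCpro_KO 12 of 18 were higher and 6 lower. These counts stand near the shares of all genes, 61.3% lower and 65.8% higher. Ccnd2 (cyclin D2) had 402 CPM in ALP, 269 in ILCpro_WT and 675 in ILCpro_KO, 2.51 times higher in ILCpro_KO than in ILCpro_WT (2.36 to 2.67). Cdk4, its kinase, had 444, 359 and 533 CPM, and the activator E2f1 71.9, 53.2 and 78.0 CPM. E2f8, a repressor made in S phase, had 28.9, 10.99 and 25.3 CPM and Ccnd1 23.1, 6.89 and 17.1 CPM. In the other direction, the cell cycle inhibitor Cdkn1a (p21) had 51.3, 99.4 and 111 CPM, Cdkn1c (p57) 1.94, 23.1 and 18.7 CPM, and the pocket protein Rbl2, linked with quiescence, 13.4, 35.3 and 22.8 CPM. Tfdp2, a partner of E2F proteins, had 46.2, 55.5 and 35.6 CPM. Ccnd3 (150, 112 and 89.6 CPM) and E2f6 (29.9, 19.4 and 17.8 CPM) were lowest in ILCpro_KO.

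Genes outside the 38 were ranked by how much higher they stood in replication-high than in replication-low cells. Among 2066 genes that reached 50 CPM in the replication-high cells of each library, the 10 with the largest ratio in their weakest library included Hells, E2f1, Tk1, Dtl, Hist1h1b, Apitd1, Pbk, Neil3 and Atad2, with smallest log2 ratios from 1.97 to 2.57. Of these, Hells and Tk1 are on the further replication list, E2f1 on that of S phase entry and Pbk on that of mitosis. Hells, a chromatin remodeller, stood at 337 CPM in replication-high and 35.1 in replication-low ALP cells, 313 and 27.7 in ILCpro_WT, and 372 and 54.3 in ILCpro_KO. E2f1 stood at 110 and 13.2, 143 and 9.89, and 191 and 11.6 CPM. The rule left out symbols of unnamed gene models; 1 such gene, 2810417H13Rik, which RefSeq names Pclaf, a factor that binds PCNA, was looked at after its values were seen and exceeded all 10, at 1183 against 132 CPM, 967 against 58.4 and 1181 against 89.1.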

How the data were processed

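UMIs were counted per gene and cell barcode in 3 libraries, 1 per group. The counts deposited by the authors are whole UMI counts, not normalized; mm10, Cell Ranger 2.0.1, STAR 2.5.1b and bcl2fastq 2.17 are listed, per the submitters' processing notes, without roles or settings. Cells with at least 500 genes and at most 10% mitochondrial UMIs were kept, and UMIs were summed per library and scaled to a total of 1000000 (CPM). Library totals of 4115605 to 6094683 UMIs make 3 UMIs equal to 0.492 to 0.729 CPM. Sums have exact Poisson intervals, ratios exact binomial ones given the total, and shares Clopper-Pearson ones, all at 95%. Cells of a library are not replicates, so no test was made. For values per cell, cells were thinned to 1000 UMIs (seed 1). Doublets were scored with Scrublet in scanpy 1.11.5 and kept, except in an alternative that removed 5, 27 and 4 cells. Scripts ran in Python 3.11.15 with NumPy 2.4.6 and SciPy 1.17.1 and were tested on simulated data.

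The 38 genes and the other lists were chosen with earlier results of these data known. Named genes are the 38, the 5 with the largest absolute log2 ratio of each of the 2 further lists in each comparison (at least 20 CPM in the higher library), the 10 genes most tied to replication-high cells, and the stage genes and markers; some genes under this rule are not reported here. Alternatives changed scaling, cell filters, thinning depth and seed, thresholds, the 10 CPM added and the minimum. The cells of 3000 to 6000 UMIs, the cells with 0 mitosis UMIs and the ranking by depth were added after seeing the data.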

Additional observations from a re-analysis of the deposited data

How the results depend on the processing

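No paired analysis was possible because each group is 1 library. The replication sums of ALP, ILCpro_WT and ILCpro_KO were 6258, 4053 and 5713 CPM without ribosomal protein and mitochondrial genes in the total, 3594, 2082 and 3303 as means over cells, 3657, 2101 and 3203 after thinning, 3829, 2993 and 2883 in cells of 3000 to 6000 UMIs, and 3181, 1706 and 3184 in cells with 0 mitosis UMIs. ILCpro_WT and ILCpro_KO were 2590 and 3595 with size factors, and 2383 and 3633 without marker cells. ILCpro_WT was 2709 with at least 1000 genes and at most 5% mitochondrial UMIs.

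The ILCpro_KO to ILCpro_WT ratio of sums, 1.52, was 1.41 without ribosomal and mitochondrial genes, 1.39 with size factors, 1.38 with the stricter cell filter, 1.59 as means over cells, 1.87 in cells with 0 mitosis UMIs, and 0.963, the other way, in cells of 3000 to 6000 UMIs, where Rrm1 (−0.23), Rrm2 (−0.019), Prim1 (−0.14) and Fen1 (−0.043) were reversed on the log2 scale. Members at least 1.5-fold higher (13) were 0 in that band and 26 with 0 mitosis UMIs. The further genes (7) were 3, 17 and, with 1 CPM added, 14. The ILCpro_WT to ALP ratio, 0.622, was 0.648 (without ribosomal and mitochondrial genes), 0.666 (size factors), 0.679 (stricter filter), 0.579 (means over cells), 0.574 (thinned), 0.606 (without marker cells), 0.782 (3000 to 6000 UMIs) and 0.536 (0 mitosis UMIs); members at least 1.5-fold lower (26) were 17 with the stricter filter and 7 in the band, and the further genes (15) were 24 as means over cells, 23 thinned, 4 in the band and 27 with 1 CPM added. The ILCpro_KO to ALP ratio, 0.944, was 0.913 (without ribosomal and mitochondrial genes), 0.919 (means over cells), 0.876 (thinned), 0.923 (without marker cells), 0.753 (band) and 1.001 (0 mitosis UMIs). Members at least 1.5-fold lower there (0) were 1 without ribosomal and mitochondrial genes, 5 thinned, 9 in the band and 1 with 1 CPM added, and the further genes (1) were 3, 2, 10 and 5 in those settings, 3 without marker cells, 0 with 0 mitosis UMIs and 2 with no minimum. A single gene was counted as reversed only where its value over all cells was past 1.5-fold, a rule set after seeing the data. Counted without it, 22 of 38 members were lower in ILCpro_KO than in ILCpro_WT in the band, against 1 over all cells. The shares of all genes under these alternatives are not given.

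Replication-high shares in ALP, ILCpro_WT and ILCpro_KO were 55.7%, 29.4% and 47.5% at 3 UMIs and 4.07%, 1.75% and 5.17% at 10 UMIs; ILCpro_WT was 17.4% thinned to 2000 UMIs, and the band gave 24.3% and 19.8% in ILCpro_WT and ILCpro_KO. Mitosis-high shares were 33.8%, 13.7% and 24.6% at 3 UMIs, 8.15%, 3.34% and 5.87% at 10, and 14.5%, 15.7% and 7.21% in the band. The late-only to early-only ratio was 0.530 in ILCpro_WT and 0.499 in ILCpro_KO with at least 2 UMIs of 1 list, 0.698 in ILCpro_WT in the band, and 0.605 in ILCpro_KO with another seed. ILCpro_KO over ILCpro_WT was 1.45 in early-only cells with at least 2 UMIs, 1.32 in late-only and 1.05 in cells with neither when thinned to 2000 UMIs, 1.04 with neither without marker cells, and 0.805, 0.955, 0.833 and 0.946 in the band (early only, both, neither, late only). The cause of these differences was not tested. Values recomputed, printed or not, counted as the same within their counting interval, or within 1.5 times for a count of genes. Of the main values 109 stayed the same, 79 moved and 2 were reversed. Of the other values, such as those of single genes and medians of lists, 1122 stayed, 284 moved and 4 were reversed. Depth limits the precision for genes near 20 CPM and for the 78 late-only ILCpro_KO cells.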
